A study of Antirrhinum majus with 21 samples.

Results

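Scaffold1195 is one sequence of the JICv1 assembly of snapdragon, *Antirrhinum majus*. Each gene was put where its transcripts aligned with the highest score, which placed 163 of 37234 genes on scaffold1195. The members described here are the 118 of these genes that reached 0.5 counts scaled to library size (CPM, here from library totals without further normalisation) in at least 3 libraries, among 24674 genes of all sequences that did so. The members were chosen by placement and by that expression threshold, and the scaffold was selected on earlier results of these data, in which many of its genes differed with the EL allele. Counts of members in the comparisons of EL alleles are therefore descriptions, read against no expectation. Just inside the threshold lay AnMG0001021200, AnMG0000158300 and AnMG0000903910, whose third-highest library stood at 0.518, 0.541 and 0.544 CPM on that scale. Just outside it lay AnMG0000688100, AnMG0001003300 and AnMG0001014000, at 0.477, 0.475 and 0.440 CPM. Counts of libraries at 0.5 CPM use that scale too, and all other CPM values are TMM-normalised. Of the 45 placed genes below the threshold, 11 had no read in any library.

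ROSEA (ROS) and ELUTA (EL) are linked loci that shape flower colour in snapdragon. ROS encodes transcription factors of the MYB family that switch on anthocyanin genes in the corolla, and EL restricts where on the flower the magenta pigment forms. Alleles of both loci distinguish magenta-flowered *A. m. pseudomajus* from yellow-flowered *A. m. striatum*. The gene IDs were not matched to gene names or to sequences here, so no role is given to any member, and whether a member is ROS or EL itself was not analysed here. For the same reason the tissue could not be checked against petal marker genes.

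RNA of the corolla of buds 5 to 10 mm long was sequenced from 21 plants, 1 library per plant, with 3 plants in each of 7 genotypes. The dominant *striatum* allele ELstr was carried by 3 genotypes. ROSji7_ELstr combined it with the dominant ROS allele of stock line JI7, and ROSpse_ELstr with the dominant ROS allele of *A. m. pseudomajus*. Both had the eluta phenotype, while rosstr_ELstr, with the recessive *striatum* ROS allele, was white. The other 4 genotypes carried recessive el alleles. ROSji7_elji7 (stock line JI7 at both loci) and ROSpse_elpse (*pseudomajus* at both) were magenta. rosdor_eldor, with both alleles from the stock line rosea-dorsea, was white. rosrec_elpse, whose recombinant ROS allele joins an upstream part from *striatum* to a downstream part from *pseudomajus*, carried the *pseudomajus* el allele and was pale. The labels give no zygosity, and the plants were grown outdoors on benches. The 3 plants of every genotype but rosdor_eldor share the prefix of their plant ID, so genotype and prefix cannot be told apart outside the fits that use the rosdor_eldor plants as a bridge. The labels do not say what the prefix means.

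Library totals ran from 8926585 to 41860890 estimated reads. The library numbers fall into a low series (5 libraries, below 3000), a middle series (13) and a high series (3, above 8000), and no source used here says whether these mark batches. One library stood apart at the members. rosstr_ELstr replicate 3 differed more than 2-fold from the mean of the other two plants of its genotype at 17 of 103 members that could be compared (16.5%), against 7.41% of 21044 other genes. At all 17 it deviated towards the mean of rosdor_eldor, the direction also of 84.3% of the 1559 other genes at which it deviated as far, and at 9 of the 17 it lay between the other rosstr_ELstr plants and rosdor_eldor. Counts, bounds and called differences that rest on rosstr_ELstr are therefore also given without this plant. The shallowest library, rosdor_eldor replicate 1, differed more than 2-fold at 24 of the 103 members (23.3%), against 18.5% of the other genes.

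The members spanned positions 39886 to 1329416, with 48 on the plus strand and 70 on the minus strand. Their transcripts had a median length of 1704.5 bases, against 1458 over all genes tested. More than 1 transcript was annotated for 31 of them (26.3%, against 32.2% of all genes tested), and 104 aligned at 100% identity (88.1%, against 86.9%). On a scale corrected for length, the members' median level was 10.6 transcripts scaled for length and library size (TPM), against 12.6 for all genes tested. The most abundant members were AnMG0000905610 at a mean of 581 TPM, AnMG0000685800 at 337, AnMG0001011300 at 255, AnMG0001022300 at 131 and AnMG0001013800 at 118. AnMG0000905610 ranged from 125 to 451 CPM in 20 libraries and reached 1093 CPM in rosrec_elpse replicate 1. Placements overlapped on the same strand for 20 members and on the other strand for 13. The overlaps on the other strand were mostly with the long placement of AnMG0004201010 (1131868 to 1302585). How reads of overlapping placements were divided is not given in the sources used here.

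Among the 7 genotypes, 53 of the 118 members differed at an edgeR adjusted p under 0.05 (44.9%), where 12.1% of all genes tested did. The differences did not follow a single grouping of genotypes along the scaffold. When the 7 genotype means of each of these members were split at their largest gap, a description chosen after the values were seen, the 3 ELstr genotypes stood against the rest at 8 members (15.1%), against 0.501% of the 2992 genes of all sequences that differed. ROSji7_elji7 and rosrec_elpse stood together at another 8 (15.1%, against 1.91%), and ROSpse_elpse alone at 9 (17.0%, against 18.8%). ROSji7_ELstr and ROSpse_elpse stood together at 6 (11.3%, against 0.969%), and ROSji7_elji7, rosdor_eldor and rosrec_elpse at 6 more (11.3%, against 0.334%). Without rosstr_ELstr replicate 3, 50 members differed, where 2347 of all genes did. The same split of the 53 then put the ELstr genotypes apart at 9 (17.0%, against 0.568% of the 2992 genes). It put ROSji7_elji7, rosdor_eldor and rosrec_elpse apart at 8 (15.1%, against 0.368%). These are amounts of RNA from whole corollas, in which fewer cells of a type and less RNA per cell cannot be told apart.

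**Figure D1:**
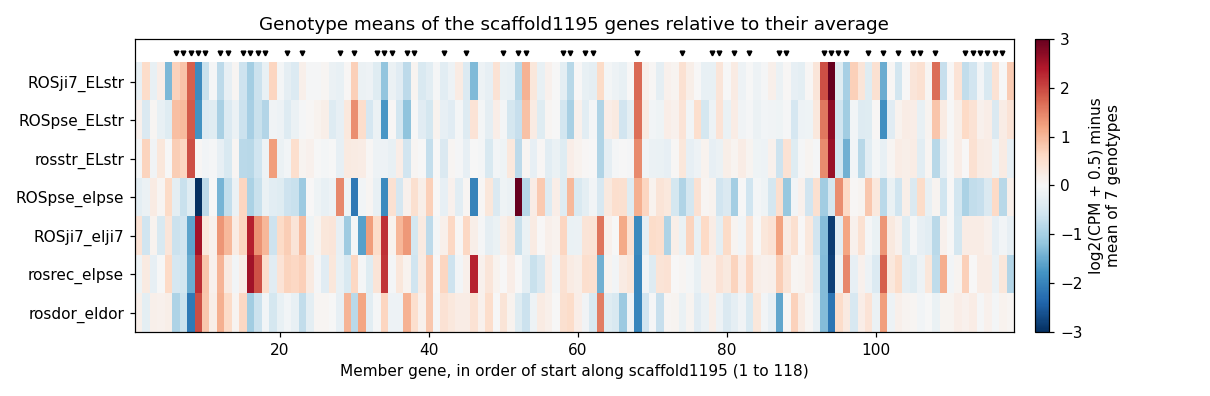
Genotype means of the 118 members in order of their start along scaffold1195, each as log2(CPM + 0.5) relative to the member's average over the 7 genotypes, with triangles at the 53 members that differed among genotypes at an edgeR adjusted p under 0.05. Red cells are above and blue cells below the average, with colours saturating at 3 log2 units, and the rows of the ELstr genotypes are alike at 2 clusters of members, near 0.2 Mb and near 1.1 Mb.

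The plainest split by EL allele concerned 7 members, at each of which the 9 ELstr libraries lay wholly above or wholly below the 12 other libraries. All 9 lay above at 5 members, as at 8 of all genes tested (0.0324%), and below at 2 members, as at 2 of all genes tested (0.00811%). The 5 higher members formed 2 clusters on the minus strand. AnMG0000146210 (198276 to 200939), AnMG0000146410 (203169 to 205841) and AnMG0000146610 (208979 to 211732) followed one another near 0.2 Mb. AnMG0001020200 (1109323 to 1110176) and AnMG0001020400 (1110942 to 1113090) lay side by side near 1.1 Mb. The 3 genes off the scaffold that separated the libraries in the same way were placed on ros_assembly, scaffold14 and scaffold713. Without rosstr_ELstr replicate 3 the count on scaffold1195 was 10, of which 6 were higher and 4 lower, among 10 higher and 5 lower of all genes tested. AnMG0000146210, AnMG0000146410 and AnMG0001020200 reached 0.5 CPM in the ELstr libraries and in no other, and AnMG0001021200, among the 2 lower members, in 4 libraries without ELstr and in none with it. These 4 entered the table through the side where they are high and so had to differ. For them no p, SE or interval is given in that comparison.

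AnMG0001020400 was the most abundant of the 5. It stood at 36.7, 37.7 and 38.2 CPM in ROSji7_ELstr, at 20.6, 30.2 and 32.8 in ROSpse_ELstr, and at 39.5, 24.9 and 14.0 in rosstr_ELstr. Among the others it stood at 1.64, 2.89 and 3.13 CPM in ROSpse_elpse, at 0.136, 0.0368 and 0.175 in ROSji7_elji7, at 0.164, 0.173 and 0.0816 in rosrec_elpse, and at 1.14, 0.127 and 0.141 in rosdor_eldor. The lowest ELstr plant, rosstr_ELstr replicate 3, was thus still far above the highest other plant, and ROSpse_elpse lay between the ELstr genotypes and the rest. The ELstr genotypes exceeded the others by a log2 fold change of 6.46 (SE 0.34, adjusted p of 1.82e-08 in edgeR), and by 6.56 without rosstr_ELstr replicate 3. Within the *pseudomajus* ROS background the log2 fold change was 3.44 (SE 0.54, adjusted p of 0.00384 in edgeR) and within the JI7 background it was 8.29 (SE 0.72, adjusted p of 5.70e-05 in edgeR). These 3 calls passed under each alternative run. The gap between both backgrounds, which also differ in the recessive el allele, was itself called (log2 difference -4.85, SE 0.84, adjusted p of 0.0167 in edgeR). It was not called without ROSji7_ELstr replicate 2 (0.0517) or ROSpse_ELstr replicate 2 (0.0538). Transcript T03 took 99.7% of the gene's reads in each of the 3 ELstr genotypes and 96.9% in ROSpse_elpse. Both AnMG0001020400 and AnMG0001020200 overlap AnMG0001020000, a placed gene below the threshold, on the same strand, so the division of reads among them is uncertain.

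Its neighbour AnMG0001020200 was lower in abundance with the same grouping. It stood at 4.45, 4.14 and 4.13 CPM in ROSji7_ELstr, at 2.82, 2.91 and 3.94 in ROSpse_ELstr, and at 3.65, 3.69 and 1.16 in rosstr_ELstr. Outside these genotypes it was above 0 in 2 libraries, at 0.293 CPM in ROSpse_elpse replicate 2 and 0.0349 CPM in ROSji7_elji7 replicate 3. The gene was thus near the floor in every plant without ELstr, and rosstr_ELstr replicate 3 was again the lowest carrier. The log2 fold change of the ELstr genotypes over the others was 7.98, and 8.10 without that plant, the largest in either direction among the called members. Against rosdor_eldor, with no read in 3 plants, rosstr_ELstr was at least 67.9-fold higher, and at least 92.7-fold without replicate 3, with the floor set at 3 counts over the group. On the 21 libraries the genes most like AnMG0001020200 in log2 CPM were AnMG0004175900 on scaffold151 (Spearman's rho 0.912, and 0.829 over the 7 genotype means), AnMG0000153900 on ros_assembly (0.886 and 0.937) and AnMG0001020400 (0.884 and 0.883). The nearest member on the other side, AnMG0001019600, shared none of this contrast, with 8.59 to 26.6 CPM in the ELstr libraries and 6.04 to 27.2 CPM in the others.

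In the cluster near 0.2 Mb, AnMG0000146610 was the most abundant. Its 9 ELstr libraries ran from 4.72 to 10.4 CPM with a median of 7.01. ROSpse_elpse stood at 1.03, 1.42 and 1.12 CPM, ROSji7_elji7 at 0.363, 0.111 and 0.209, rosrec_elpse at 0.0548, 0.317 and 0.462, and rosdor_eldor had no read in any plant. As at AnMG0001020400, ROSpse_elpse was the highest of the genotypes without ELstr, and at both members its plants did not overlap with those of the other 3. The log2 fold change of the ELstr genotypes was 5.74 (SE 0.34, adjusted p of 2.59e-07 in edgeR), and 5.79 without rosstr_ELstr replicate 3. rosstr_ELstr was at least 191-fold higher than rosdor_eldor, and at least 228-fold without that plant. AnMG0000146410 ran from 0.559 to 1.66 CPM in the ELstr libraries and from 0 to 0.0816 CPM in the others. Its log2 fold change was 5.61, and 5.56 without rosstr_ELstr replicate 3. ROSpse_ELstr was at least 24.4-fold higher than ROSpse_elpse, whose 3 plants had no read. AnMG0000146210 ran from 0.567 to 2.46 CPM in the ELstr libraries and from 0 to 0.460 CPM in the others. Its log2 fold change was 4.05, and 4.08 without rosstr_ELstr replicate 3. The call of AnMG0000146610 passed whichever library was left out.

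**Figure D2:**
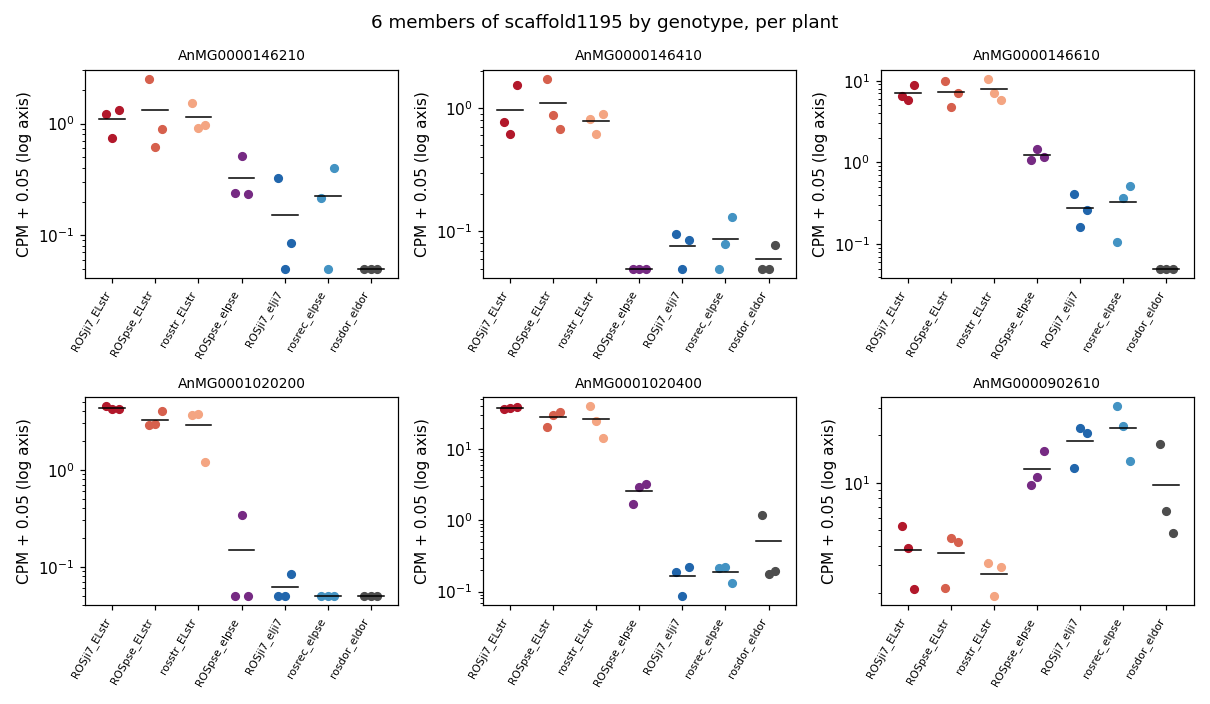
CPM of 6 members in each of the 21 plants, on a log axis after adding 0.05, by genotype, with a bar at the mean of each genotype's 3 plants. The first 5 panels show members whose 9 ELstr plants all lie above the 12 others. In the last, AnMG0000902610, the ELstr plants are low and one of them, at 5.26 CPM, overlaps the lowest of the others, at 4.75 CPM.

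At 2 members the ELstr libraries lay below the rest. AnMG0001015300 (960493 to 967145) was moderately abundant, with 21.5 to 27.0 CPM in the ELstr libraries and 27.3 to 37.7 CPM in the others. The step was small, a log2 fold change of -0.37 (SE 0.07, adjusted p of 0.0269 in edgeR), and the call ended on leaving out any one of 9 libraries (adjusted p 0.0507 to 0.0832), among them rosstr_ELstr replicate 3 (0.0596). AnMG0001021200 (1139372 to 1139787), a short gene just inside the expression threshold, had reads in 2 of the 9 ELstr libraries, at 0.0232 and 0.0264 CPM, and 0.0288 to 0.891 CPM in the others. Over the group the others exceeded the ELstr genotypes 33.1-fold, from 77 and 2 reads. AnMG0000902610 (1128135 to 1130760) came close to the same split. It stood at 1.86 to 5.26 CPM in the ELstr libraries, with a median of 3.07, and at 4.75 to 30.5 CPM in the others, with a median of 14.8. Its log2 fold change was -2.18 (SE 0.27, adjusted p of 0.000817 in edgeR) and passed under each alternative run.

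Taken as a mean over the 3 ELstr genotypes against a mean over the 4 others, 22 members were called, where 0.450% of all genes tested were. Of these, 9 were higher (0.259% of all genes) and 13 lower (0.190%), and 5 of the 22 had fewer than 3 libraries at 0.5 CPM outside the side where they were higher. Besides those above, the largest was AnMG0000896310, described with the members that ROSpse_elpse shares. AnMG0001014700 (936554 to 940231) was higher in the ELstr genotypes, at 52.6 to 71.9 CPM against 20.5 to 55.8 CPM, a log2 fold change of 0.72 (SE 0.08, adjusted p of 0.000287 in edgeR), and passed under each alternative run. AnMG0001003100 (508047 to 513773) was lower, at 5.52 to 17.0 CPM against 13.9 to 63.5 CPM. Among its ELstr plants 17.0 CPM belonged to rosstr_ELstr replicate 3, and the other 8 lay below every plant without ELstr. Its log2 fold change was -1.55 (SE 0.20, adjusted p of 0.00100 in edgeR). AnMG0000159000 (270441 to 272883) was lower as well, at 0.614 to 1.69 CPM against 1.21 to 4.77 CPM, with a log2 fold change of -1.52 (SE 0.26, adjusted p of 0.0127 in edgeR), and so was AnMG0001005800 (636192 to 640076), at 9.58 to 13.4 CPM against 13.1 to 28.2 CPM, with -0.63 (SE 0.11, adjusted p of 0.0128 in edgeR). Without rosstr_ELstr replicate 3 the count of called members was 19, while that over all genes went from 111 to 76. The calls of AnMG0000158100, AnMG0001015300 and AnMG0001022500 then ended (adjusted p 0.0513, 0.0596 and 0.0650 in edgeR), and no other was added. The log2 fold changes of AnMG0001014700, AnMG0001003100, AnMG0000159000, AnMG0001005800 and AnMG0000902610 were then 0.73, -1.76, -1.69, -0.60 and -2.20.

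The EL allele was exchanged within a ROS background in 2 pairs of genotypes that share no library. The recessive allele set against ELstr came from *pseudomajus* in one pair and from JI7 in the other. Where the pairs differ, the ROS background and the recessive el allele therefore cannot be told apart. Between ROSpse_ELstr and ROSpse_elpse, 24 members were called, where 2.82% of all genes tested were. Of these, 16 were higher with ELstr (1.38% of all genes) and 8 lower (1.44%), and 4 of the lower had fewer than 3 libraries at 0.5 CPM outside ROSpse_elpse. Between ROSji7_ELstr and ROSji7_elji7, 12 were called, where 0.190% of all genes tested were. Of these, 5 were higher with ELstr (0.0973% of all genes) and 7 lower (0.0932%). Called in both pairs were AnMG0000146410, AnMG0000146610, AnMG0001020200 and AnMG0001020400, each higher with ELstr, and AnMG0001003100, lower. These 5 make up 20.8% of the first list and 41.7% of the second, and no member was called in opposite directions. AnMG0000146410 and AnMG0001020200 reached 0.5 CPM in ELstr libraries alone, so their calls in both pairs are partly built in. The positions of the calls differed. Of the 24 calls in the *pseudomajus* background, 8 fell among the 15 members beyond 1.2 Mb, while 6 of the 12 in the JI7 background fell among the 21 members between 0.2 and 0.4 Mb. A fit that also held the plant ID prefix, resting on single rosdor_eldor plants, still called 1 member in the *pseudomajus* background, AnMG0001020400. Over all genes that fit called 13. Single plants moved the counts as well. Leaving out ROSpse_elpse replicate 1, 2 or 3 brought the 24 to 14, 11 or 12, and leaving out the second or the third ROSpse_ELstr plant to 10 or 13. Over all genes the 695 called became 460, 232 or 384, and 162 or 398. The 12 became 6 without ROSji7_elji7 replicate 1 and 4 without each of the ROSji7_ELstr plants, while the 47 of all genes became 24, and 11, 15 and 16. Of the 5 shared members, AnMG0001020400 was called in each pair in all of these fits. AnMG0000146610 lost its call in the *pseudomajus* pair without any one ROSpse_elpse plant (adjusted p 0.0501 to 0.0536 in edgeR), and AnMG0000146410 its call in the JI7 pair without any one of 5 plants, all but ROSji7_elji7 replicate 2 (0.0541 to 0.112). AnMG0001020200 lost its calls without ROSpse_ELstr replicate 2 (0.0593) in the first pair and, in the second, without ROSji7_elji7 replicate 1 or any one ROSji7_ELstr plant (0.0595 to 0.0980). AnMG0001003100 lost its call without any one of the 6 plants of the first pair (0.0702 to 0.189) and, in the second, without ROSji7_elji7 replicate 1 or any one ROSji7_ELstr plant (0.0689 to 0.149).

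**Figure D3:**
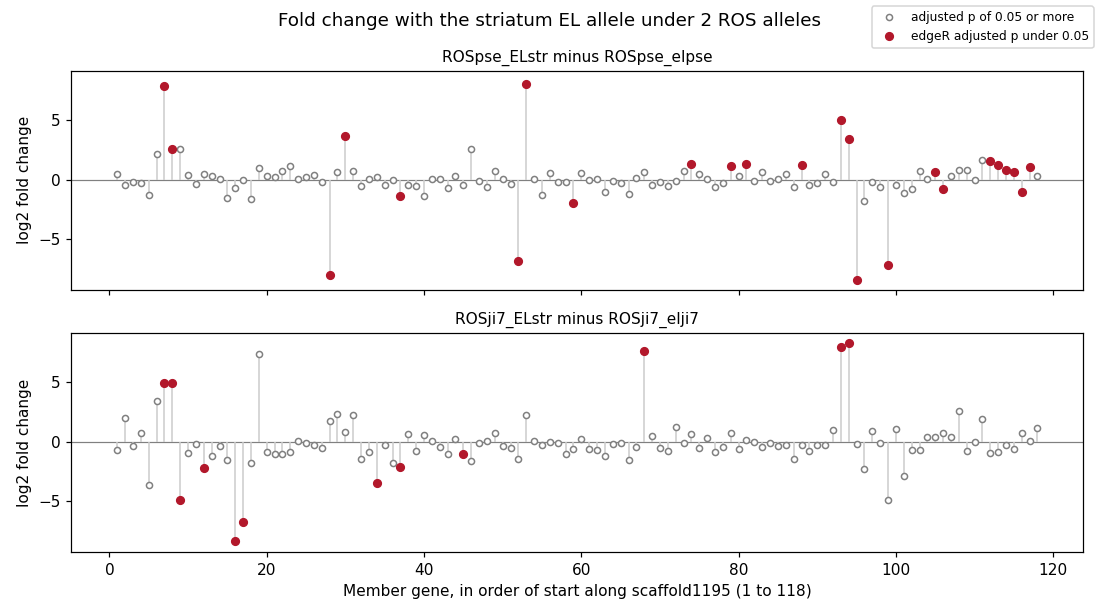
Log2 fold change with ELstr at the 118 members in order along scaffold1195, above in the *pseudomajus* ROS background (24 members called) and below in the JI7 background (12 called), with filled points at an edgeR adjusted p under 0.05. The calls near the right end are in the upper panel, and those of the lower panel gather at the left and near 1.1 Mb.

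The difference between both pairs, *pseudomajus* minus JI7, was called at 12 members, where 0.494% of all genes tested were. It was positive at 8 (0.259% of all genes) and negative at 4 (0.235%). The count became 6 without ROSji7_ELstr replicate 2 or ROSpse_ELstr replicate 2, and 7 without ROSpse_elpse replicate 2. Over all genes the 122 called became 22, 27 and 44 in these fits. AnMG0001002600 (485067 to 487089) stood at 10.7, 6.64 and 4.74 CPM in ROSji7_ELstr, at 3.56, 5.40 and 5.36 in ROSpse_ELstr and at 4.69, 4.85 and 3.07 in ROSpse_elpse. It stood at 14.5, 10.6 and 21.6 CPM in rosstr_ELstr and at 20.9, 25.7 and 35.2 in rosdor_eldor. In ROSji7_elji7 it reached 74.1, 86.8 and 82.4 CPM, and in rosrec_elpse 50.2, 94.9 and 88.7. The 2 magenta genotypes thus lay at opposite ends, with the white genotypes between them. ELstr went with a log2 fold change of -3.46 in the JI7 background (SE 0.35, adjusted p of 0.000266 in edgeR) and 0.19 in the *pseudomajus* background (adjusted p of 0.881 in edgeR), and their difference of 3.66 (SE 0.48, adjusted p of 0.00184 in edgeR) passed under each alternative run. Transcript T01 took 93.9% of the reads in ROSji7_elji7, 84.0% in rosrec_elpse and in rosdor_eldor, 64.3% in rosstr_ELstr, 63.7% in ROSpse_elpse, 44.7% in ROSji7_ELstr and 17.8% in ROSpse_ELstr. The gene overlaps AnMG0000888010 on the same strand, so the division of reads between both is uncertain.

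AnMG0000156400 (221404 to 225513), next to the cluster near 0.2 Mb, also had its 3 highest means in ROSji7_elji7, rosrec_elpse and rosdor_eldor. It stood at 34.8, 32.7 and 27.5 CPM in ROSji7_elji7, at 24.0, 26.2 and 28.2 in rosrec_elpse and at 17.7, 21.9 and 23.9 in rosdor_eldor. In ROSpse_elpse it stood at 0.328, 0.209 and 0.0621 CPM, in ROSji7_ELstr at 1.05 ± 0.07 (mean ± SD), and in ROSpse_ELstr at 1.60, 0.605 and 1.20. Every plant of the latter 3 genotypes was more than 10-fold below every plant of the former 3. rosstr_ELstr was split, with 1.98 and 0.832 CPM in 2 plants and 13.3 CPM in replicate 3; its mean was 5.36 CPM with that plant and 1.40 CPM without it. ELstr went with a log2 fold change of -4.91 in the JI7 background (SE 0.75, adjusted p of 0.0104 in edgeR), a call that ended without any one of the 3 ROSji7_ELstr plants (adjusted p 0.0599 to 0.0997). The difference between both pairs was 7.45 (SE 1.10, adjusted p of 0.00690 in edgeR, and 0.117 in the middle library number series alone). AnMG0000157600 (248225 to 252497) had its 3 highest means in these genotypes too, with means of 25.5 ± 4.2 CPM in ROSji7_elji7, 20.6 ± 5.8 in rosrec_elpse, 21.5 ± 8.9 in rosdor_eldor and 3.49 ± 0.79 in ROSpse_elpse (SD, n = 3 plants). Its ELstr libraries lay between 4.11 and 15.0 CPM, the highest again rosstr_ELstr replicate 3.

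AnMG0000896310 (883896 to 889668) was high in the genotypes where AnMG0000156400 was low. It stood at 5.10, 5.46 and 7.22 CPM in ROSji7_ELstr, at 5.95, 5.71 and 5.58 in ROSpse_ELstr, at 7.65, 5.85 and 0.739 in rosstr_ELstr and at 4.13, 3.93 and 2.79 in ROSpse_elpse. In the 9 plants of ROSji7_elji7, rosrec_elpse and rosdor_eldor it did not exceed 0.0454 CPM. The low plant of rosstr_ELstr was once more replicate 3, and it still lay above those 9 plants. ROSji7_ELstr exceeded ROSji7_elji7 237-fold (95% counting interval 65.3 to 1960, from 588 and 2 reads; adjusted p of 0.00127 in edgeR), whereas ROSpse_ELstr and ROSpse_elpse differed by a log2 fold change of 0.67 (adjusted p of 0.695 in edgeR). The difference between both pairs was -6.94 (SE 1.09, adjusted p of 0.0101 in edgeR, and 0.125 in the middle library number series alone). AnMG0001021600 (1147850 to 1152820) had its 3 highest means in rosrec_elpse (63.3 ± 34.6 CPM), ROSji7_elji7 (45.4 ± 16.8) and rosdor_eldor (43.1 ± 3.1), against 10.0 ± 2.3 in ROSpse_elpse and 2.40 to 39.0 CPM in the ELstr libraries. The 39.0 CPM belonged to rosstr_ELstr replicate 3.

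**Figure D4:**
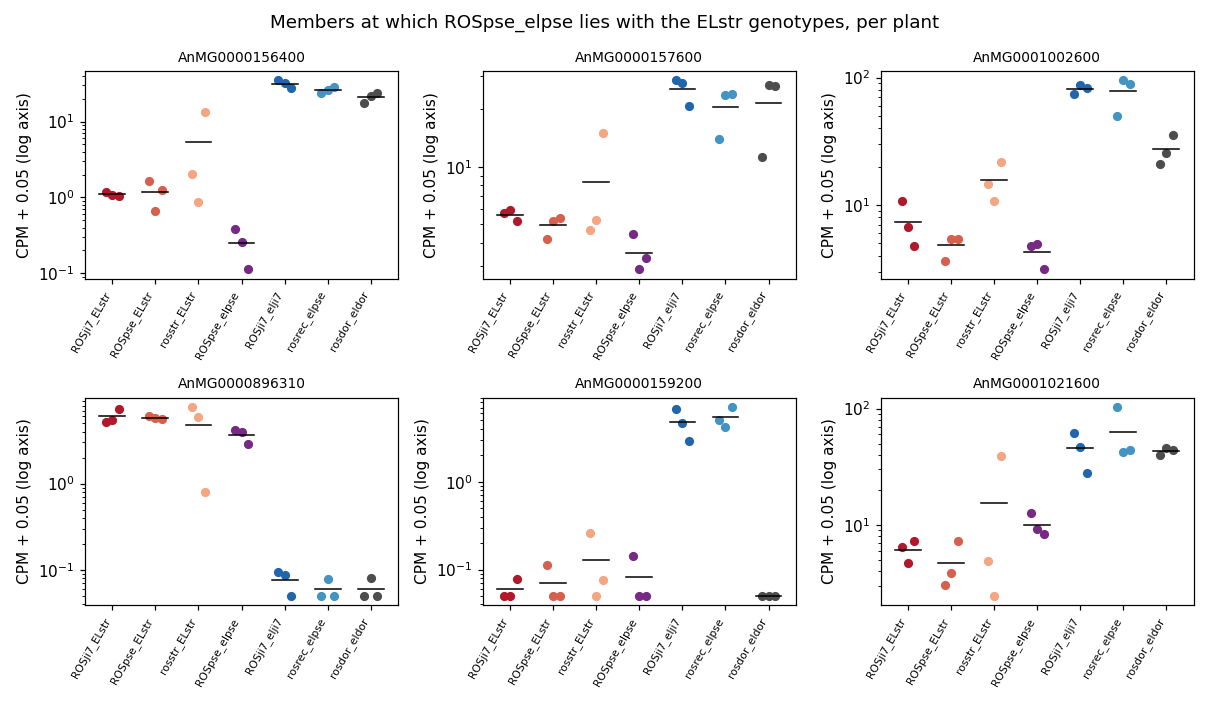
CPM of 6 members in each of the 21 plants, on a log axis after adding 0.05, by genotype, with a bar at the mean of each genotype's 3 plants. ROSpse_elpse lies near the ELstr genotypes in each panel, and ROSji7_elji7 and rosrec_elpse lie far from them; rosstr_ELstr replicate 3 stands apart from the other rosstr_ELstr plants at 4 of the 6 members.

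2 neighbouring members were found almost only in ROSji7_elji7 and rosrec_elpse. AnMG0000159200 (273970 to 274999) stood at 6.68, 4.64 and 2.90 CPM in ROSji7_elji7 and at 4.99, 4.15 and 7.05 in rosrec_elpse, and did not exceed 0.209 CPM in any other plant. AnMG0000148810 (277562 to 278759) stood at 1.32, 2.14 and 1.15 CPM in ROSji7_elji7 and at 1.15, 2.16 and 4.19 in rosrec_elpse, and did not exceed 0.0930 CPM elsewhere. Both genes reached 0.5 CPM in every plant of ROSji7_elji7 and rosrec_elpse and in no other, and so entered the table through these genotypes. That the other plants did not overlap with them is therefore partly built in. The same holds for the calls and adjusted p-values of both genes below, which set one of these genotypes against another. rosrec_elpse and ROSpse_elpse carry the same el allele by their labels, yet AnMG0000159200 was 205-fold higher in rosrec_elpse (95% counting interval 56.3 to 1690, adjusted p of 0.00128 in edgeR) and AnMG0000148810 at least 69.0-fold higher (adjusted p of 0.00165 in edgeR). In the JI7 background AnMG0000159200 was 442-fold lower with ELstr (95% counting interval 78.8 to 17500, from 356 and 1 reads; adjusted p of 0.0105 in edgeR). That call ended without any one of the 3 ROSji7_ELstr plants (adjusted p 0.0595 to 0.108), though 0, 0 and 0.0279 CPM in that genotype stood against at least 2.90 CPM in ROSji7_elji7. Against rosdor_eldor, with no read, ROSji7_elji7 was at least 115-fold higher.

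Across the scaffold, 41 members were called between rosrec_elpse and ROSpse_elpse, where 13.6% of all genes tested were. In rosrec_elpse 31 were higher (7.27% of all genes) and 10 lower (6.31%). Without ROSpse_elpse replicate 2 the count was 27, while that over all genes went from 3353 to 1569. These genotypes also differ in the library number series, since rosrec_elpse has no library in the middle series. Within that series the comparison could not be made. With the series as a term in the fit 32 members were called, and 2264 of all genes. AnMG0001002600 changed most firmly, with a log2 fold change of 4.22 (SE 0.37, adjusted p of 1.35e-05 in edgeR). AnMG0001016100 (980973 to 987174) stood at 52.6, 45.8 and 44.3 CPM in rosrec_elpse and at 14.4, 13.8 and 15.2 in ROSpse_elpse, a log2 fold change of 1.71 (SE 0.16, adjusted p of 2.40e-05 in edgeR). These 2 sets of plants were well apart, and the other 5 genotypes lay between 21.8 and 40.1 CPM.

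ROSpse_elpse stood alone at several further members, as it did over all genes. By the largest gap its share was 17.0% of the members that differed, against 18.8% of all genes that differed. AnMG0000686100 (400305 to 402362) and AnMG0000892010 (707270 to 707500) passed the expression threshold only through ROSpse_elpse, with 0 and 1 libraries of other genotypes at 0.5 CPM, and so had to differ; no p is given for them. AnMG0000686100 was found at 0.985, 1.13 and 1.24 CPM in ROSpse_elpse and did not exceed 0.0279 CPM in any of the other 18 plants. It was at least 26.5-fold higher in ROSpse_elpse than in ROSpse_ELstr. AnMG0000892010 stood at 17.9, 3.14 and 5.77 CPM in ROSpse_elpse and at most 0.894 CPM elsewhere. Its log2 fold change with ELstr was -6.79. Both genes were thus highest in all 3 plants of a single genotype. Others were lowest there. AnMG0001014700 stood at 29.0, 25.0 and 20.5 CPM in ROSpse_elpse, below the other 18 plants, and ROSpse_ELstr exceeded it by a log2 fold change of 1.33 (SE 0.16, adjusted p of 0.00180 in edgeR). AnMG0000687600 (431765 to 434101) had a mean of 6.12 ± 4.09 CPM there, against 75.9 ± 55.4 in ROSpse_ELstr and 16.2 to 47.4 in the means of the other 5 genotypes. Its log2 fold change with ELstr was 3.64 (SE 0.64, adjusted p of 0.00627 in edgeR).

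Near the high-coordinate end a different pair of genotypes went together. At AnMG0001022000, AnMG0001022900, AnMG0001025400, AnMG0001025500, AnMG0001026200 and AnMG0001026400, which start between 1184128 and 1316437, ROSji7_ELstr lay with ROSpse_elpse apart from the other 5 genotypes. AnMG0001025400 (1288179 to 1291344) stood at 100, 96.0 and 91.3 CPM in ROSji7_ELstr and at 68.4, 88.2 and 93.0 in ROSpse_elpse. It stood at 207, 251 and 271 CPM in ROSpse_ELstr, at 362, 247 and 185 in rosrec_elpse and at 140, 199 and 184 in rosdor_eldor, with means of 162 ± 18.5 in rosstr_ELstr and 188 ± 18.8 in ROSji7_elji7. No plant of the former 2 genotypes overlapped any plant of the latter 5. AnMG0001025500 (1295014 to 1299586) showed the same split, at 9.99 to 14.0 CPM in those 6 plants and 17.7 to 31.1 CPM in the other 15. AnMG0001026400 (1316437 to 1318767) went the other way, at 11.9, 9.61 and 13.5 CPM in ROSji7_ELstr and 13.5, 11.1 and 14.3 in ROSpse_elpse, against 4.24 to 9.23 CPM in the other 15 plants.

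The fitted log2 fold changes with ELstr had opposite signs in both backgrounds at these 6 members, but none passed in the JI7 background (adjusted p 0.0522 to 0.214 in edgeR), and AnMG0001022000 passed in neither (0.0518 in the *pseudomajus* background). At AnMG0001025400 the log2 fold change was 1.55 in the *pseudomajus* background (SE 0.21, adjusted p of 0.00226 in edgeR) and -0.97 in the JI7 background (adjusted p of 0.0697 in edgeR). Their difference of 2.52 (SE 0.30, adjusted p of 0.000687 in edgeR) passed under each alternative run. AnMG0001025500 had 1.22 and -0.83, with a difference of 2.05 (SE 0.23, adjusted p of 0.000687 in edgeR) that did so too. AnMG0001026400 had -1.08 and 0.73, with a difference of -1.81 (SE 0.32, adjusted p of 0.0202 in edgeR, and 0.0512 without ROSji7_ELstr replicate 3). Transcript T02 of AnMG0001025500 took 37.7% of its reads in ROSpse_elpse, and 0.375% to 13.0% in the other genotypes, so the 2 genotypes with the low level did not share the make-up of transcripts.

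**Figure D5:**
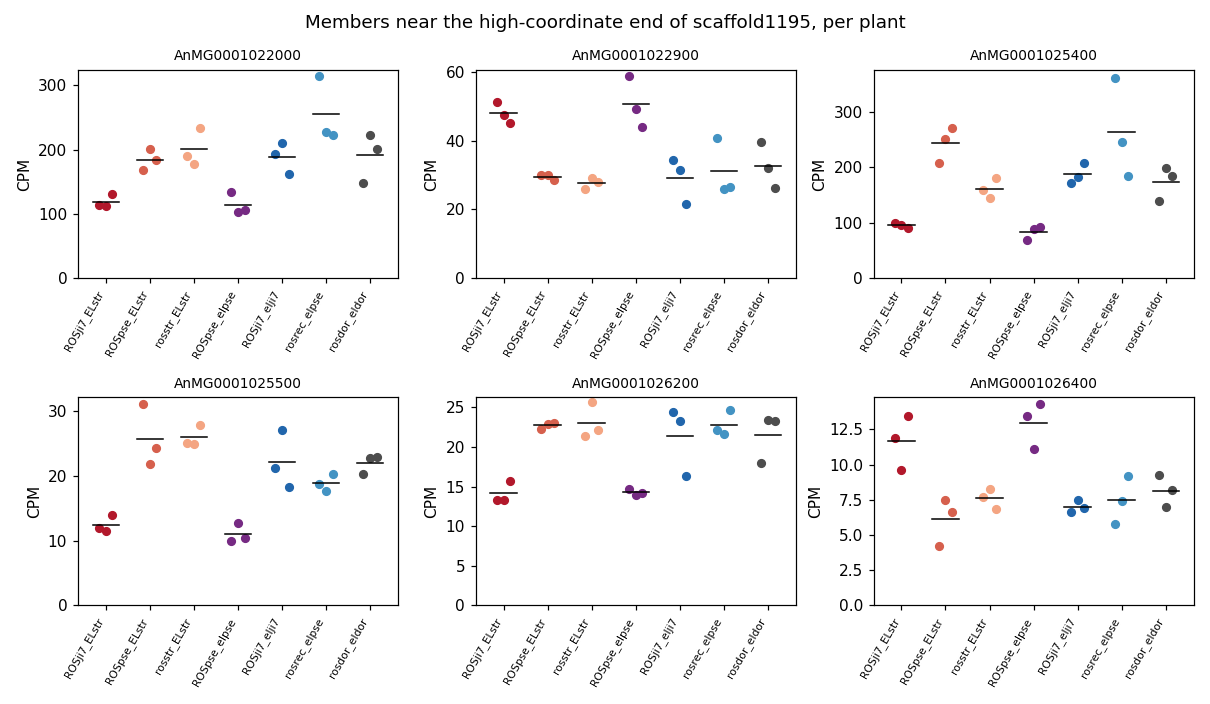
CPM of 6 members that start between 1184128 and 1316437 in each of the 21 plants, by genotype, with a bar at the mean of each genotype's 3 plants. ROSji7_ELstr and ROSpse_elpse lie together, low at AnMG0001022000, AnMG0001025400, AnMG0001025500 and AnMG0001026200 and high at AnMG0001022900 and AnMG0001026400.

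2 pairs of genotypes that share ELstr were compared. Between ROSpse_ELstr and ROSji7_ELstr, 2 were called, where 0.608% of all genes tested were (0.405% in the same direction). They were AnMG0001025400 (log2 fold change 1.34, SE 0.21, adjusted p of 0.00528 in edgeR) and AnMG0001025500 (1.04, SE 0.17, adjusted p of 0.00589 in edgeR), both higher in ROSpse_ELstr. Between ROSpse_ELstr and rosstr_ELstr, 1 member was called, where 0.454% of all genes tested were (0.186% in the same direction). This was AnMG0001002600, lower in ROSpse_ELstr by a log2 fold change of -1.70 (SE 0.33, adjusted p of 0.0347 in edgeR), and its call ended on leaving out any one of the 6 plants (adjusted p 0.0598 to 0.125). Without rosstr_ELstr replicate 3 it was -1.41 (0.104). At an unadjusted p under 0.05 in edgeR these comparisons held 10 and 13 members, and the share of all genes at that cutoff was not taken. The median size of the log2 fold change was 0.235 at the members in the first comparison, against 0.218 over all genes tested. In the other it was 0.269 against 0.266.

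Between the white genotypes rosstr_ELstr and rosdor_eldor, which differ at both loci, 4 members were called, where 0.0770% of all genes tested were called. Each was higher in rosstr_ELstr, as were 0.0486% of all genes, while 0.0284% were lower. They were AnMG0000146610, AnMG0000896310, AnMG0001020200 and AnMG0001020400. Without rosstr_ELstr replicate 3 the count was 8, with 4 higher and 4 lower, while the count over all genes went from 19 to 52. The 4 lower were AnMG0000156400 (log2 fold change -3.88), AnMG0000157600 (-2.12), AnMG0001003100 (-2.23) and AnMG0001021600 (-3.54). The 4 higher were the members called with all plants. AnMG0001020200 entered the table through the ELstr libraries alone, so its call is partly built in. That call ended without any one of the 3 rosdor_eldor plants or of the first 2 rosstr_ELstr plants (edgeR adjusted p 0.0862 to 0.239).

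The recessive el alleles of the magenta genotypes were set against that of rosdor_eldor, with the ROS allele differing as well. Between ROSpse_elpse and rosdor_eldor 14 members were called, where 0.515% of all genes tested were. In ROSpse_elpse 5 were higher (0.243% of all genes) and 9 lower (0.272%). AnMG0000896310 was 255-fold higher in ROSpse_elpse (95% counting interval 45.4 to 10100, adjusted p of 0.00228 in edgeR) and AnMG0000146610 at least 28.8-fold higher (adjusted p of 0.00228 in edgeR). AnMG0000156400 was lower by a log2 fold change of -6.78 (SE 0.87, adjusted p of 0.00228 in edgeR). Leaving out ROSpse_elpse replicate 1, 2 or 3 brought the count to 7, 5 or 7, and leaving out the second or the third rosdor_eldor plant to 4 or 6. Over all genes the 127 called became 26, 13 or 59, and 19 or 24. Between ROSji7_elji7 and rosdor_eldor 4 members were called, where 0.223% of all genes tested were. In ROSji7_elji7 3 were higher (0.0648% of all genes) and 1 lower (0.158%). AnMG0001017800 (1042617 to 1046548) was higher by 2.92 on the log2 scale (SE 0.46, adjusted p of 0.00995 in edgeR, and 0.0727 without rosdor_eldor replicate 3), with means of 40.5 ± 15.0 and 5.51 ± 2.72 CPM. AnMG0001003700 (529832 to 534940) was lower, with a log2 fold change of -1.04 (SE 0.18, adjusted p of 0.0201 in edgeR), with means of 44.4 ± 7.1 and 91.1 ± 8.0 CPM; the call ended without ROSji7_elji7 replicate 3 (0.0546) or rosdor_eldor replicate 3 (0.0904). The count was 0 without rosdor_eldor replicate 3, and 8 and 2 without ROSji7_elji7 replicates 2 and 3. Over all genes the 55 called became 18, 155 and 81 in these fits. Both comparisons use the same rosdor_eldor plants, and the first shares its ROSpse_elpse plants with every comparison above that uses that genotype.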

How the data were processed

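Corolla RNA of 21 plants was sequenced as 50 bp single-end reads, 1 library per plant. Tools named in the submitters' processing notes are DESeq2, Salmon 0.9.1 and cutadapt 1.16. The authors deposited 1 table per library with an estimated count per transcript, not normalised, and TPM, which was used only to compare levels between genes. The deposited placement file gives the authors' alignment score per placement on JICv1, from which the best placement of a gene was taken. Use of strand in counting is not given in the sources used here.

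Estimated counts were summed per gene and rounded. Genes with at least 0.5 CPM in 3 libraries (24674) were tested with edgeR 4.0.16 and its quasi-likelihood F test (R 4.3.3, limma 3.58.1), with TMM normalisation, 1 mean per genotype, one fit of 21 libraries and Benjamini-Hochberg adjustment over all genes; called means an adjusted p under 0.05. The biological coefficient of variation was 0.400. There were 11 comparisons. SE was taken as the size of the log2 fold change over the square root of the F value, and CPM values are TMM-normalised, except at the expression threshold. Where a group had no read, the fold is a lower bound against 3 counts over the group. With 1 to 3 reads it is a ratio with a 95% interval, which is not given for AnMG0001021200. Both cover counting error only, and fitted fold changes there depend on the prior count. The procedure was tested on counts simulated for the *pseudomajus* pair, with spreads taken from the edgeR fit. There edgeR recovered 24% of 2-fold and 78% of 4-fold changes and called 0 unchanged genes. DESeq2 recovered 52% and 91% and called 44 unchanged genes.

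The members, lists and rules were chosen with earlier results of these data known. Members named were those called in the EL comparisons with at least 1 CPM in the higher group, up to 10 per direction; up to 3 per direction without overlap in other comparisons; the neighbours of the member with the largest change; the 5 with the highest TPM; and 3 that earlier results named. AnMG0001015300, AnMG0001021200, AnMG0001022000 and AnMG0001026200 fall outside this rule and were chosen after their values were seen. Not every member that met the rule is described above. In the *pseudomajus* pair AnMG0001007700 (at least 25.1-fold higher with ELstr), AnMG0001018600 (log2 fold change 1.23) and AnMG0001020600 (at least 35.8-fold lower) were left out. The last had 1 library at 0.5 CPM outside ROSpse_elpse and so had to differ. Plants of a genotype are separate plants. Alternatives were DESeq2 1.42.0, its size factors, no filter, library number series or plant ID prefix as a term, the middle series alone, only the groups compared, members placed on 1 sequence, and each plant left out. The petal and pigment marker lists could not be matched to IDs and were not run.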

Additional observations from a re-analysis of the deposited data

Results flagged for a closer look

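At 12 members the log2 fold change with ELstr differed between the *pseudomajus* pair and the JI7 pair by a test of the difference itself (edgeR, Benjamini-Hochberg adjusted p over all genes tested), with 3 plants in each of the 4 genotypes. The pairs differ in the ROS allele and in the recessive el allele, which cannot be told apart here. The difference, *pseudomajus* minus JI7, was 7.45 at AnMG0000156400 (2.54 against -4.91, edgeR adjusted p = 0.00690), 2.68 at AnMG0000157600 (0.49 against -2.20, 0.0458) and 3.66 at AnMG0001002600 (0.19 against -3.46, 0.00184). It was -6.94 at AnMG0000896310 (0.67 against 7.61, 0.0101), 1.11 at AnMG0001016100 (1.27 against 0.16, 0.0333) and -4.85 at AnMG0001020400 (3.44 against 8.29, 0.0167), where the change was higher with ELstr in both. Near the high-coordinate end the fitted values had opposite signs at all 6 such members, though none of the JI7 values passed (edgeR adjusted p 0.0522 to 0.214). There the difference was 1.35 at AnMG0001022000 (0.69 against -0.67, edgeR adjusted p = 0.0287), -1.50 at AnMG0001022900 (-0.78 against 0.72, 0.0246), 2.52 at AnMG0001025400 (1.55 against -0.97, 0.000687), 2.05 at AnMG0001025500 (1.22 against -0.83, 0.000687), 1.26 at AnMG0001026200 (0.67 against -0.59, 0.0167) and -1.81 at AnMG0001026400 (-1.08 against 0.73, 0.0202). On leaving out 1 of the 12 plants at a time, the call ended for all 12 at AnMG0000157600 (edgeR adjusted p up to 0.122), for 9 at AnMG0001016100 (up to 0.0992), for 7 at AnMG0001022000 (up to 0.102), for 6 at AnMG0001022900 (up to 0.0850), for 3 at AnMG0001026200 (up to 0.0656), for 2 at AnMG0001020400 (up to 0.0538) and for 1 at AnMG0001026400 (0.0512). At the other 5 members the calls remained when plants were left out. Of these 5, AnMG0000156400 (edgeR adjusted p = 0.117) and AnMG0000896310 (0.125) lost their calls in the middle library number series alone.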

How the results depend on the processing

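No paired analysis was possible because the replicate numbers follow the order of the samples and pair no plants. In the order *pseudomajus* pair, JI7 pair, ELstr genotypes against the rest, difference between pairs, white pair, ROSpse_ELstr against rosstr_ELstr, ROSpse_ELstr against ROSji7_ELstr, ROSpse_elpse and ROSji7_elji7 against rosdor_eldor, the main counts of called members were 24, 12, 22, 12, 4, 1, 2, 14 and 4. DESeq2 called 33 in the JI7 pair, 40 for the ELstr genotypes, 24 for the difference, 11 in the white pair, 2 and 6 between genotypes that share ELstr, and 25 and 13 against rosdor_eldor. Over all genes, in the same order, it called 441, 747, 644, 118, 716, 555, 705 and 305. There edgeR called 47, 111, 122, 19, 112, 150, 127 and 55, so the counts rose over all genes and not at the members alone. The middle library number series alone gave 6, 3, 7 (without rosrec_elpse), 5, 2, 0, 1, 5 and 1, and 18 of the 53 members that differed among genotypes. Over all genes it gave 178, 6, 25, 45, 8, 13, 100, 33 and 44, and 260 that differed among genotypes. As rosrec_elpse has no library there, its comparison was not run. With the plant ID prefix as a term the counts were 1 in the *pseudomajus* pair, 2 in the white pair, 0 for ROSpse_ELstr against rosstr_ELstr and 1 for ROSpse_elpse against rosdor_eldor. Over all genes they were 13, 9, 7 and 34. The other comparisons could not be fitted. With only the groups compared they were 0, 0, 3 and 0 for the white pair, ROSpse_ELstr against rosstr_ELstr, and ROSpse_elpse and ROSji7_elji7 against rosdor_eldor. Leaving out each plant in turn gave 10 to 18, 4 to 14, 15 to 24, 6 to 14, 3 to 8, 0 to 0, 2 to 2, 4 to 17 and 0 to 8, and 27 to 38 for rosrec_elpse against ROSpse_elpse, 39 to 57 among all genotypes, and 7 to 10 members without overlap between ELstr and other libraries. Called over all genes were 162 to 513, 11 to 239, 50 to 197, 22 to 165, 10 to 52, 5 to 89, 55 to 231, 13 to 189 and 18 to 155. They were 1569 to 3047 for rosrec_elpse against ROSpse_elpse and 1725 to 3382 among all genotypes. Of 1158 alternatives to 73 results on named members, 893 left direction and call as they were, 264 ended the call, and 1 turned the direction: AnMG0001010400 in the *pseudomajus* pair, -1.98, became 0.28 with the plant ID prefix as a term (edgeR adjusted p = 0.904). For 16 of the 73 results no alternative ended the call. The causes were not tested. Members near 0.5 CPM rest on few reads. The p-values of the main fit rest on the spread among plants within genotypes, pooled over all 21 libraries with 3 plants per genotype.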
